A study of Mus musculus with 12 samples.

Results

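The genes described here are 10 known markers of tuft cells (TCs), followed through whole submandibular glands (SMGs) of the mouse: *Pou2f3*, *Trpm5*, *Avil*, *Sh2d6*, *Plcb2*, *Dclk1*, *Il17rb*, *Chat*, *Gfi1b* and *Alox5ap*. They were chosen by name, as 10 of the 56065 genes listed in the deposited count table, and all 10 were found there through their Ensembl identifiers. Bulk RNA-sequencing covered 12 libraries, each from a mouse of 8 weeks, with 3 biological replicates in each of 4 groups. The groups were wild-type C57BL/6J females, wild-type C57BL/6J males, and females and males of the strain C57BL/6J-Pou2f3em1Cbwi/J, referred to as Pou2f3-/-. The knockout is global, so the gene is lost in each organ and not in the gland alone, and both strains came from the Jackson Laboratory. Total counts per library ran from 47032175 to 67882207, and a count of 0, which allows up to 3 counts, sets a limit of 0.0442 to 0.0638 CPM (counts scaled to a library total of 1000000) in a library.

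Genes of the gland itself were present in each library, with 4897 to 14861 counts of the acinar water channel *Aqp5* and 7808 to 15348 of the acinar factor *Bhlha15*. Wild-type female 1 stood apart from its group. It had 21282 counts of *Smgc*, a mucin-like protein of the female gland, against 149266 and 139778 in the others. Its counts of the macrophage gene *Adgre1* were 2233, against 285 and 343. Wild-type male 3 had 1428 counts of *Smgc*, and the other males had at most 14.

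TCs sense chemicals in the lumen of hollow organs and carry a brush of stiff microvilli, and in salivary glands they lie in the ducts. The transcription factor POU2F3 is required for them to form. In the cascade they share with taste cells, a receptor acts through the phospholipase PLCB2 to release calcium, which opens the cation channel TRPM5. The cell then releases messengers such as acetylcholine, leukotrienes and interleukin-25. The comparison of Pou2f3-/- with wild-type SMGs asks what the gland expresses when these cells are missing. In whole tissue, fewer cells of a type and less RNA per cell cannot be told apart.

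Sequences upstream of the gene start are shown for *Avil*, which passed the test between genotypes in females, and for *Dclk1*, the member with the most counts. POU2F3 belongs to the factors that bind the octamer ATGCAAAT. RefSeq sequences on GRCm38.p6 were given for 8 of the 10 members, in 9 promoters, and not for *Pou2f3* or *Alox5ap*. The octamer was searched on both strands in the 250 bases before each start and was in 0 of these 9, as against 1.60% of 32851 promoters of the same length. Its first 7 letters, ATGCAAA, were in 1 of the 9, that of *Avil*, and in 4.12% of all. In *Avil* they occurred once on each strand, with the first base of the match 115 and 15 bases before the start. Such a match describes these letters and is not a binding site. The sequences follow 5′ to 3′ on the plus strand, and capitals mark ATGCAAA and its reverse complement TTTGCAT.
Avil, GRCm38.p6 chr10:127000459-127000708, plus strand: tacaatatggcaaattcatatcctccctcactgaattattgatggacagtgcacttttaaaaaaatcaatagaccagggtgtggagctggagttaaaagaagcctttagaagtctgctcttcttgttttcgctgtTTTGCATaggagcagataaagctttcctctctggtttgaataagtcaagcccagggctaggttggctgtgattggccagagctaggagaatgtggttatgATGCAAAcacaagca
Dclk1 first start, GRCm38.p6 chr3:55242114-55242363, plus strand: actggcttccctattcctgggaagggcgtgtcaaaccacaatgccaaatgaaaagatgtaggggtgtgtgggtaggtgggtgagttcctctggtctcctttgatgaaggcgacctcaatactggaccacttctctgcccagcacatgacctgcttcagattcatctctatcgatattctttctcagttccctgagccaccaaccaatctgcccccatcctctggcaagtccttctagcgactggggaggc
Dclk1 second start, GRCm38.p6 chr3:55461478-55461727, plus strand: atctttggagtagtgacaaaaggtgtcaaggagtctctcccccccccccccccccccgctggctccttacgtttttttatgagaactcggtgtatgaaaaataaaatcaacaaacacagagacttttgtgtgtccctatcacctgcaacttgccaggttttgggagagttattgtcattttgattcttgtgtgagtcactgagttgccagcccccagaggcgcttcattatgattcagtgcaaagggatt

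Of the 10 members, 5 had enough counts for a test across all genes. An edgeR filter on low counts kept 17893 genes, among them *Avil*, *Plcb2*, *Dclk1*, *Il17rb* and *Alox5ap*. Among the 21599 protein-coding genes listed, 65.7% passed, 17.3% had no count in any of the 12 libraries, and 27.8% had a total no higher than the 18 counts of *Pou2f3*. *Trpm5* (9 counts in all), *Chat* (13), *Pou2f3* (18), *Gfi1b* (27) and *Sh2d6* (53) stayed below the filter. *Trpm5*, *Pou2f3* and *Chat* had at most 3 counts in 11 of the 12 libraries each, *Gfi1b* in 9 and *Sh2d6* in 7.

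**Figure D1:**
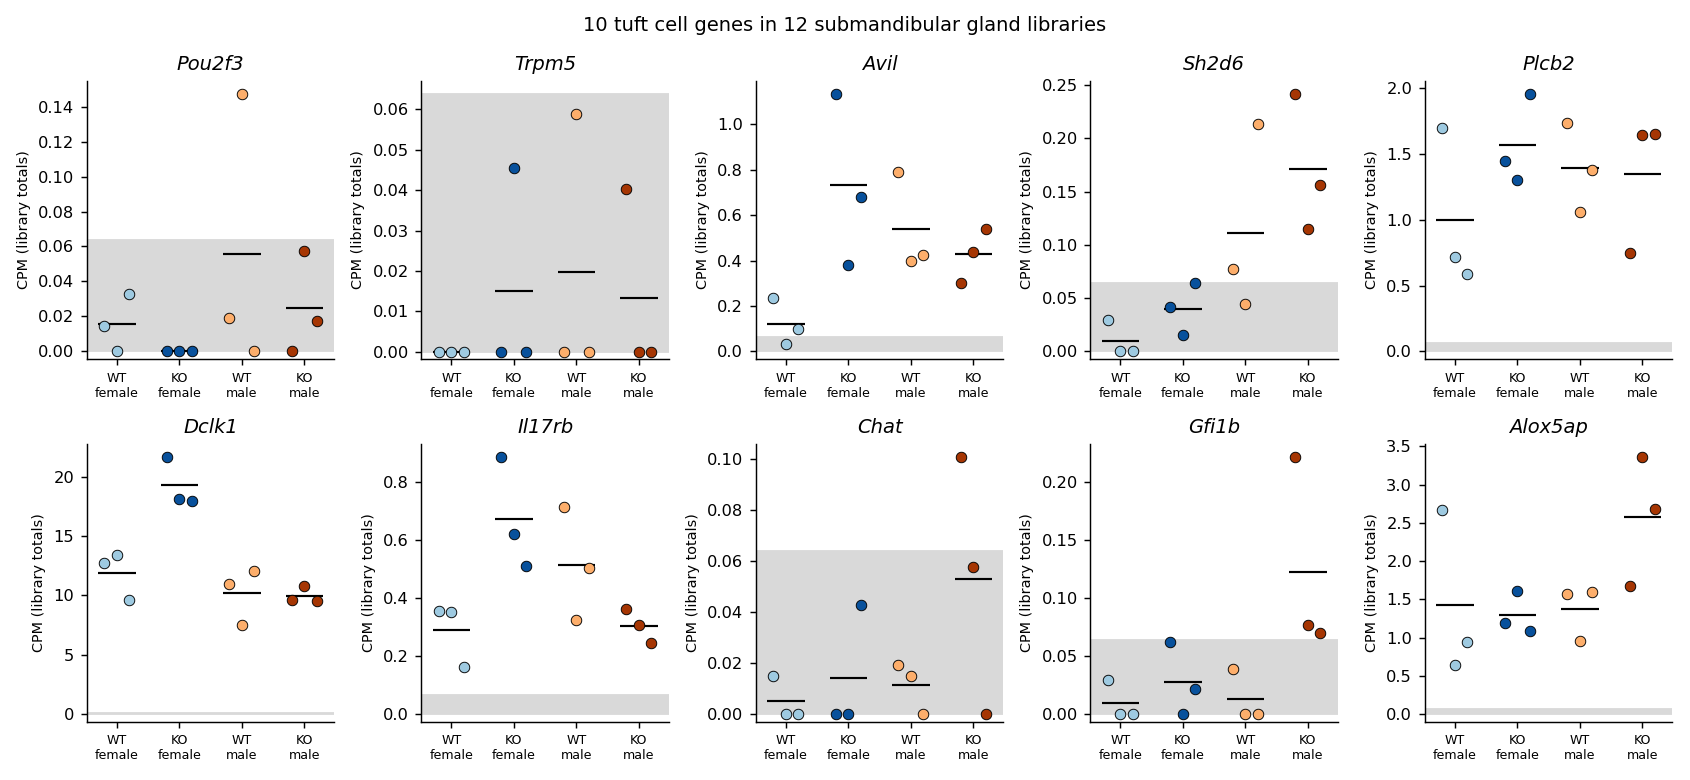
CPM of each of the 10 tuft cell genes (y axis, by library total) in 4 groups of 3 libraries (x axis; points are libraries, bars are means, WT is wild type and KO is knockout). The grey band ends at 0.0638 CPM, the highest limit that a count of 0 allows in a library. Points of *Trpm5* all lie inside the band, and those of *Dclk1*, *Plcb2*, *Il17rb* and *Alox5ap* all lie above it.

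To set the members in order, levels were divided by the length of annotated exon, as CPM per kb with library sizes adjusted by TMM (the trimmed mean of M values, a scaling between libraries), and averaged over the 12 libraries. *Dclk1* came first at 0.612 ± 0.257 (SD, n = 12), and its level was higher than that of 56.0% of protein-coding genes. *Alox5ap* followed at 0.427 ± 0.218, *Plcb2* at 0.193 ± 0.0666, *Avil* at 0.124 ± 0.0804 and *Il17rb* at 0.0687 ± 0.0303. The first rank of *Dclk1* did not hold in knockout males 2 and 3, where it was at 0.420 and 0.393 and *Alox5ap* at 0.738 and 0.626. In knockout male 1 *Dclk1* was at 0.353 and *Alox5ap* at 0.346. The exon length used for *Dclk1*, joined over all annotated transcripts, was 21795 bases, against 6808 for *Plcb2*, the next longest. A longer length lowers the level per kb. The lower end held *Sh2d6* at 0.0417 ± 0.0375, *Gfi1b* at 0.0206 ± 0.0280, *Pou2f3* at 0.00758 ± 0.0130, *Chat* at 0.00294 ± 0.00420 and *Trpm5* at 0.00182 ± 0.00339. Neighbours were ordered alike in 11 of 12 libraries for *Alox5ap* over *Plcb2*, *Plcb2* over *Avil* and *Avil* over *Il17rb*. The order was less steady elsewhere, with *Dclk1* over *Alox5ap* in 9 libraries (not in wild-type female 1 or knockout males 2 and 3), *Il17rb* over *Sh2d6* in 8, *Sh2d6* over *Gfi1b* in 9 and *Gfi1b* over *Pou2f3* in 7. *Pou2f3* was above *Chat* in 6 libraries and *Chat* above *Trpm5* in 5, so that these last members did not differ beyond their spread.

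**Figure D2:**
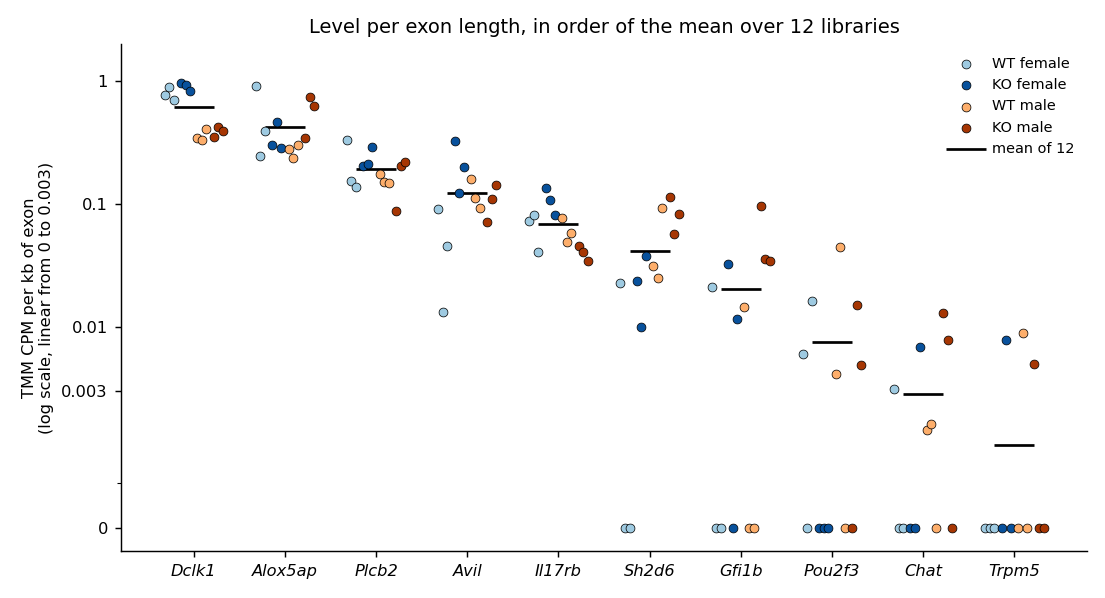
Level of each member in each of the 12 libraries (y axis, TMM-adjusted CPM per kb of exon, log scale that is linear from 0 to 0.003), in order of the mean (x axis, black bar). Colours mark the 4 groups. The means run from 0.612 for *Dclk1* to 0.00182 for *Trpm5*, and the 5 members with the lowest means have libraries at 0.

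The transcription factors of the list were counted only a few times per library, and *Gfi1b* had more counts in knockout males than in wild-type males. *Pou2f3* itself (ENSMUSG00000032015.17, GRCm39 chromosome 9, 43035228 to 43121666, minus strand) had 1, 0 and 2 counts in wild-type females, 1, 10 and 0 in wild-type males, 0 in each knockout female and 0, 3 and 1 in knockout males. Wild-type male 2 thus held 10 of all 18 counts, and the genotypes overlapped in both sexes. Pooled over 3 libraries, the 0 counts of knockout females allow up to 0.0186 CPM. The 3 counts of wild-type females correspond to 0.0154 CPM, with an exact Poisson 95% interval of 0.00318 to 0.0451 that, like the other intervals on counts, covers counting error only. Over both sexes, 4 knockout counts stood against 14 in wild type, a ratio per total count of 0.326 (exact interval 0.0781 to 1.04). With TMM-adjusted sizes in place of totals the ratio was 0.291 (exact interval 0.0698 to 0.927), so that the interval then lay below 1.

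The mean of *Pou2f3* was 0.0125 CPM in knockout and 0.0357 CPM in wild type, a difference of -0.0232 CPM. Exchanging the genotype within each sex gave a two-sided exact permutation p = 0.45 over 400 arrangements, where 0.005 is the smallest p possible. Without wild-type male 2 the difference was -0.00026 CPM (exact permutation p = 1.0). The permutation test over libraries detected no fall of *Pou2f3* RNA in the knockout at this depth, and the targeted gene could not serve to check the labels. Which exons the 4 knockout counts came from is not recorded in counts summed per gene.

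*Gfi1b* encodes a zinc-finger repressor that TCs share with precursors of platelets and red cells. Its counts (ENSMUSG00000026815.15, chromosome 2, 28499462 to 28511994, minus strand) were 2, 0 and 0 in wild-type females, 2, 0 and 0 in wild-type males, 3, 0 and 1 in knockout females and 11, 4 and 4 in knockout males. Each knockout male library was above each wild-type male library, a separation that 14.5% of all genes tested showed in either direction, while the female groups overlapped. The summed counts were 19 in knockout and 2 in wild-type males, a ratio of 10.2 (exact interval 2.46 to 90.4). In females 4 stood against 2, a ratio of 2.41 (exact interval 0.345 to 26.6). *Gfi1b* entered no main test, and edgeR with no filter gave an unadjusted p = 0.0309 (adjusted p = 0.452) in males.

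Of the 7 genes of the megakaryocyte and erythroid list, some had high counts in knockout males and others were near 0 in both genotypes. *Itga2b*, an integrin of platelets, had 97, 202 and 146 counts in knockout and 40, 63 and 42 in wild-type males, and *Pf4*, a platelet chemokine, had 89, 223 and 182 against 56, 76 and 65. The hemoglobin gene *Hbb-bs* had 24, 76 and 63 against 10, 23 and 9, and *Hba-a1* had 15, 60 and 43 against 7, 30 and 0. In males the log2 fold changes were 1.81 for *Itga2b*, 1.52 for *Pf4*, 2.14 for *Hbb-bs* and 1.85 for *Hba-a1*. *Gp9*, a platelet glycoprotein, had 1, 2 and 6 against 5, 0 and 1, and the erythroid factor *Klf1* had 5, 3 and 0 against 3, 5 and 0. Within knockout males, *Gfi1b* was highest in replicate 1, the library in which *Itga2b* and *Pf4* were lowest. In females, where the *Gfi1b* counts overlapped, 1 of the 4 testable genes of the list was called, *Itga2b*, at a log2 fold change of 1.64 (adjusted p = 0.0199), where 36.9% of all genes were called. The other 3 were at -0.05 for *Pf4* (adjusted p = 0.923) and, for the hemoglobin genes, -1.68 for *Hbb-bs* (adjusted p = 0.0738) and -1.75 for *Hba-a1* (adjusted p = 0.339). The summed level of the 7 genes ran from 3.73 to 9.18 TMM-adjusted CPM in knockout males and from 1.61 to 2.80 in wild-type males. *Gata1*, a defining regulator of these lineages, was at 0 in each male library. In males 0 of the 4 testable genes of this list passed with edgeR and 0 with limma. DESeq2 called 3, and it called 2.21% of all genes there. With edgeR 3 had an unadjusted p under 0.05, as did 2056 of all 17893 genes. The part of these cells in the *Gfi1b* counts was not tested.

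**Figure D3:**
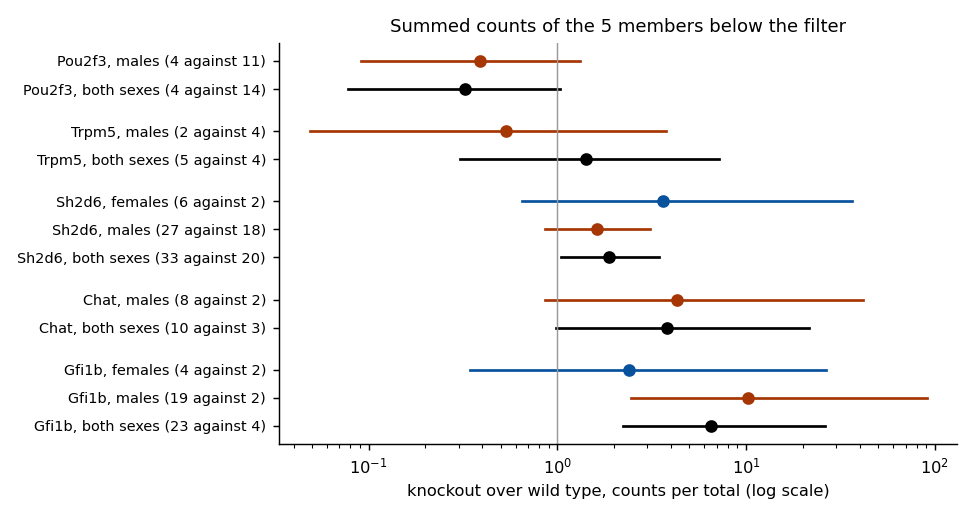
Ratio of summed counts, knockout over wild type per total count (x axis, log scale), for the 5 members below the filter, with exact 95% intervals (lines) that cover counting error only. Brackets give knockout against wild-type counts, and pairs of sums of at most 3 each are left out. The interval of *Gfi1b* lies above 1 in males and over both sexes, whereas each interval of *Pou2f3*, *Trpm5* and *Chat* includes 1. With TMM-adjusted sizes, which are not drawn, the interval of *Pou2f3* over both sexes was 0.0698 to 0.927.

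In the signalling chain, the phospholipase was measured well and the channel barely, and a difference between genotypes was found for neither. *Trpm5*, the calcium-gated channel (ENSMUSG00000009246.15, chromosome 7, 142622890 to 142648379, minus strand), had 0 counts in each wild-type female, 0, 4 and 0 in wild-type males, 0, 3 and 0 in knockout females and 2, 0 and 0 in knockout males. A single library supplied all counts of each group that had any. Over both sexes 5 knockout counts stood against 4, a ratio of 1.42 (exact interval 0.307 to 7.18), which leaves room for a change in either direction. Exons of *Tssc4* overlap *Trpm5* on the opposite strand, and *Tssc4* had 4020 counts in all. The libraries were stranded, but the strand setting of the counting is not given in the sources used here.

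*Plcb2* (ENSMUSG00000040061.18, chromosome 2, 118537979 to 118559111, minus strand) had 115, 47 and 36 counts in wild-type females, 90, 72 and 71 in wild-type males, 70, 86 and 92 in knockout females and 37, 86 and 95 in knockout males. Wild-type female 1 and knockout male 1 lay apart from the others of their groups, and the genotypes overlapped in both sexes. The mean level was 1.41 ± 0.718 TMM-adjusted CPM (SD, n = 3) in wild-type and 1.60 ± 0.319 in knockout females, and 1.08 ± 0.103 in wild-type and 1.16 ± 0.491 in knockout males. The log2 fold change was 0.18 (95% interval -0.64 to 0.99, adjusted p = 0.751) in females and 0.11 (-0.71 to 0.92, adjusted p = 0.946) in males.

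Among the members for cell shape and signalling adaptors, *Avil* was higher in knockout than in wild-type females, and *Dclk1* was lower in males than in females of both genotypes. *Avil* encodes advillin, an actin-binding protein of TC microvilli that sensory neurons also express (ENSMUSG00000025432.12, chromosome 10, 126836578 to 126856863, plus strand). Counted reads were 16, 2 and 6 in wild-type females, 41, 27 and 22 in wild-type males, 55, 25 and 32 in knockout females and 15, 23 and 31 in knockout males. Each knockout female was above each wild-type female, while the male groups overlapped. The level rose from 0.171 ± 0.134 TMM-adjusted CPM (SD, n = 3) in wild-type to 0.735 ± 0.342 in knockout females, a log2 fold change of 2.06 (SE 0.57, adjusted p = 0.0139, edgeR). In males it was 0.414 ± 0.119 in wild type and 0.367 ± 0.123 in knockout, a log2 fold change of -0.17 (SE 0.53, adjusted p = 0.935).

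*Avil* was 1 of 5 testable members called in females, where 36.9% of all 17893 genes were called and 17.6% were called higher. Groups did not overlap for 49.3% of genes in that comparison. The call was lost without knockout female 1, at a log2 fold change of 1.61 (adjusted p = 0.0695), and without wild-type female 1 the value was 2.82 (adjusted p = 0.00553). Genes with fewer than 50 counts per library on average, the range of *Avil*, stood at a median log2 fold change of 0.54 there, and 17.4% of them were called higher. Exons of *Tsfm* overlap *Avil* on the opposite strand. Counts of *Tsfm* ran from 182 to 202 over the 6 female and from 282 to 376 over the 6 male libraries, and its log2 fold change in females was -0.16 (adjusted p = 0.378).

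*Avil* ran closest to the genes of cholinergic neurons among the lists of other cell types. After subtraction of group means, log2 CPM of *Avil* and of the 3 testable neuron genes had a median Pearson correlation of 0.90 (0.28 to 0.95) over 12 libraries, as a description of libraries that share depth and composition. Knockout female 1, on which the call rests, had 14 counts of the vesicular transporter *Slc18a3* against 0 and 3 in the other knockout females, and 30 of *Prph*, a filament protein of peripheral neurons, against 1 and 3. The summed level of 6 neuron genes was 1.56 TMM-adjusted CPM in that library and at most 0.353 in the others of its group, and in wild-type females it was 1.77, 0.292 and 0.391. With edgeR, DESeq2 and limma 0 of the 3 testable neuron genes passed between the female genotypes (0 at an unadjusted p under 0.05 with edgeR). The part of neurons in the *Avil* values was not tested.

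*Dclk1*, a doublecortin-like kinase that marks TCs and is also expressed by neurons and other cells (ENSMUSG00000027797.16, chromosome 3, 55149618 to 55446493, plus strand), was the most counted member. It had 863, 876 and 588 counts in wild-type females, 566, 508 and 622 in wild-type males, 1051, 1198 and 845 in knockout females and 477, 565 and 545 in knockout males. The levels in TMM-adjusted CPM were 17.3 ± 2.20, 7.87 ± 0.881, 19.7 ± 1.47 and 8.47 ± 0.736 (SD, n = 3 each), in the same order of groups. In these levels each male library was below each female library, a separation that 47.6% of all genes showed in either direction in wild type and 54.8% in knockout, and the genotypes overlapped within each sex. By library totals the sexes overlapped in wild type and each knockout female was above each wild-type female. The log2 fold change between genotypes was 0.19 (95% interval -0.06 to 0.45, adjusted p = 0.225) in females and 0.11 (-0.16 to 0.37, adjusted p = 0.803) in males. With library totals the value in females was 0.69 (adjusted p = 0.010), while the median of all genes moved to 0.53, and with limma on the authors' values it was 0.50 (adjusted p = 0.0286), so that *Dclk1* was called under both.

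Between the sexes, *Dclk1* was lower in males by a log2 fold change of -1.13 (SE 0.12, adjusted p = 1.34e-05) in wild type and -1.22 (SE 0.12, adjusted p = 7.59e-06) in knockout. It was 1 of 5 testable members called in wild type, where 36.5% of all genes were called and 16.0% were called lower, and in knockout, where 43.5% were called and 20.3% were called lower, it was 1 of 2 called, with *Il17rb*. With library totals alone the difference in wild type was -0.23 (adjusted p = 0.267), while the median of all genes moved to 0.95 under that scaling. Relative to that median *Dclk1* was at -1.19. The summed level of 5 Schwann and glia genes was also lower in males, from 57.7 to 69.0 TMM-adjusted CPM in wild-type males and from 79.6 to 89.9 in wild-type females, and from 47.6 to 63.1 against 73.0 to 88.9 in the knockout. Its part in the *Dclk1* difference was not tested.

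*Sh2d6*, an adaptor with an SH2 domain (ENSMUSG00000052631.17, chromosome 6, 72490624 to 72498690, minus strand), had 2, 0 and 0 counts in wild-type females, 4, 3 and 11 in wild-type males, 2, 1 and 3 in knockout females and 12, 6 and 9 in knockout males. Each male library was above each female library of the same genotype, as the 47.6% of all genes tested in wild type and 54.8% in knockout that were separated in either direction, and the genotypes overlapped in both sexes. Over both sexes 33 knockout counts stood against 20, a ratio of 1.88 (exact interval 1.05 to 3.46). With TMM-adjusted sizes in place of totals the ratio was 1.68 (exact interval 0.936 to 3.09), so that the interval then included 1.

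The members that make or receive messengers showed a sex difference for *Il17rb* in the knockout. With edgeR after TMM scaling they gave no call between genotypes. *Alox5ap* encodes the protein that hands arachidonic acid to the leukotriene pathway, and macrophages and other myeloid cells express it as well as TCs (ENSMUSG00000060063.10, chromosome 5, 149196003 to 149227762, plus strand). Libraries held 181, 42 and 58 in wild-type females, 81, 65 and 82 in wild-type males, 58, 106 and 51 in knockout females and 83, 176 and 154 in knockout males, as counts. Wild-type female 1 was the highest library, the female groups overlapped, and each knockout male was above each wild-type male. The level was 1.99 ± 1.35 TMM-adjusted CPM (SD, n = 3) in wild-type and 1.34 ± 0.379 in knockout females, a log2 fold change of -0.57 (SE 0.42, adjusted p = 0.315), and 0.08 without wild-type female 1. In males it was 1.06 ± 0.124 in wild type and 2.20 ± 0.780 in knockout, a log2 fold change of 1.06 (SE 0.42, adjusted p = 0.338).

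In males 0 of the 5 testable members passed with edgeR, and DESeq2 and limma gave 0 each. An unadjusted p under 0.05 with edgeR was found for 1 member (*Alox5ap*) and for 2056 of all 17893 genes. After adjustment edgeR called 0.235% of all genes, and 0.101% as higher. That background rests on knockout male 1, since edgeR called 42 genes with it and 658 without it. Without this library 0 of the 5 members passed as well, with *Alox5ap* at 1.32 (adjusted p = 0.117). In TMM-adjusted levels, groups of males did not overlap for 14.5% of all genes tested and for 2 of the 5 members, *Alox5ap* and *Il17rb*. Over both sexes 0 of 5 passed with edgeR, 0 with DESeq2 and 1 with limma. Of all genes, edgeR called 17.5%, with 6.20% called higher, and limma called 16.0%. With edgeR 1 member had an unadjusted p under 0.05, as did 6009 of all 17893 genes.

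**Figure D4:**
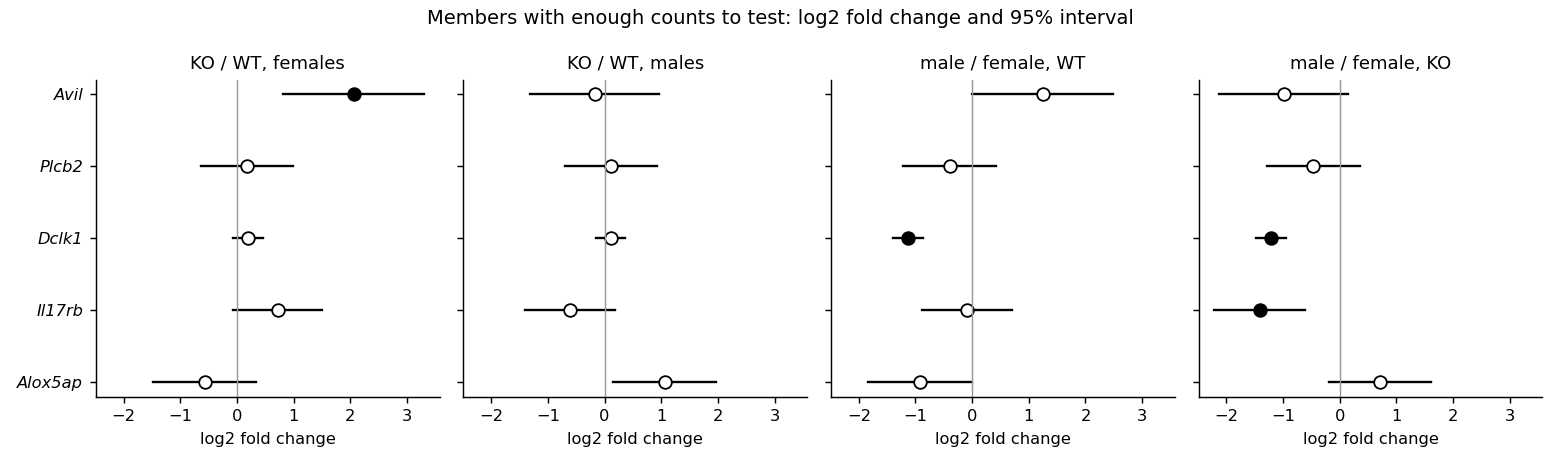
Log2 fold change (x axis, edgeR) with its 95% interval (lines) for the 5 members that passed the filter, for knockout over wild type in each sex and for males over females in each genotype. Filled points have an adjusted p under 0.05: *Avil* in females, at 2.06, *Dclk1* between the sexes in both genotypes, at -1.13 and -1.22, and *Il17rb* between the sexes in knockout, at -1.42.

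*Alox5ap* ran beside the macrophage genes and, to a like degree, the mast cell genes. The summed level of 8 macrophage genes was 192 TMM-adjusted CPM in wild-type female 1 and 83.0 and 112 in the other wild-type females, and 69.5 to 105 in knockout females. It was 75.1 to 88.7 in wild-type males and 93.6 to 173 in knockout males, with no listed gene at 0. Between the female genotypes edgeR called 3 of the 8, all lower in knockout, where 19.3% of all genes were called lower. In males 0 passed with edgeR, 0 with limma and 1 with DESeq2, which called 2.21% of all genes. There 6 of the 8 had an unadjusted p under 0.05 with edgeR, as did 2056 of all 17893 genes. The genotype effect differed between the sexes for 5 with edgeR, against 25.7% of all genes. After subtraction of group means, log2 CPM of *Alox5ap* and of these 8 genes had a median Pearson correlation of 0.88 (0.83 to 0.96) over 12 libraries, a description of libraries that share depth and composition. The same figure for *Plcb2*, which leukocytes also express, was 0.73, and for *Avil*, *Dclk1* and *Il17rb* it was 0.46, -0.0019 and -0.27.

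Mast cells also express *Alox5ap*. Over the 4 testable mast cell genes *Cpa3*, *Cma1*, *Mcpt4* and *Tpsb2*, all of them proteases, the median correlation was 0.84 (0.71 to 0.93) for *Alox5ap*, 0.74 for *Plcb2* and 0.65 for *Avil*. The log2 fold change of these genes in males was 2.62 for *Cpa3*, 2.40 for *Mcpt4*, 2.17 for *Tpsb2* and 1.91 for *Cma1*. With edgeR 0 of the 4 passed (4 at an unadjusted p under 0.05, as were 2056 of all 17893 genes). DESeq2 called 3, in a comparison where it called 2.21% of all genes, and limma called 0. The summed level of this list, which holds the neutrophil genes *S100a8* and *S100a9* at 4 counts each in all, was 1.03 to 2.58 TMM-adjusted CPM in knockout and 0.314 to 0.554 in wild-type males. In females it was 1.61 to 2.18 in knockout and 0.718 to 2.90 in wild type, with the highest value in wild-type female 1. Log2 fold changes of the 5 fibroblast genes in males ran from 0.51 (*Col1a1*) to 0.96 (*Pdgfra*). Of these, 0 passed with edgeR (5 at an unadjusted p under 0.05), 3 with DESeq2 and 0 with limma. The summed level of the 5 was 408 to 737 TMM-adjusted CPM in knockout and 325 to 369 in wild-type males. The median correlation of the 5 with *Alox5ap* was 0.66. The part of macrophages, mast cells and fibroblasts in the *Alox5ap* values was not tested.

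**Figure D5:**
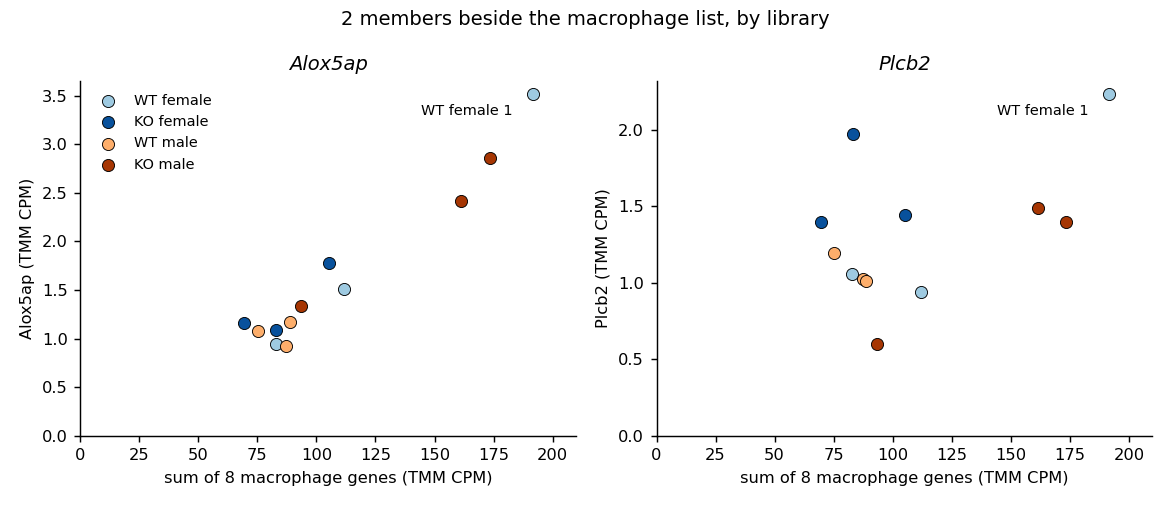
Level of *Alox5ap* and of *Plcb2* (y axes, TMM-adjusted CPM) against the summed level of 8 macrophage genes (x axes, TMM-adjusted CPM) in 12 libraries, coloured by group. Wild-type female 1, at 192 on the x axis, is highest in both panels, and knockout males reach 173.

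*Il17rb* encodes a subunit of the receptor for interleukin-25 (ENSMUSG00000015966.18, chromosome 14, 29716082 to 29730956, minus strand). Libraries held 24, 23 and 10 in wild-type females, 37, 22 and 26 in wild-type males, 43, 41 and 24 in knockout females and 18, 16 and 14 in knockout males, as counts. In TMM-adjusted CPM the genotypes overlapped in females, and each knockout male was below each wild-type male. By library totals this was the other way round, with the males overlapping and each knockout female above each wild-type female. The level was 0.415 ± 0.135 TMM-adjusted CPM (SD, n = 3) in wild-type and 0.687 ± 0.172 in knockout females, a log2 fold change of 0.72 (SE 0.36, adjusted p = 0.140). In males it was 0.392 ± 0.0916 in wild type and 0.257 ± 0.0354 in knockout, a log2 fold change of -0.61 (SE 0.37, adjusted p = 0.573). With library totals alone *Il17rb* was called between the female genotypes, at 1.21, while the median of all genes moved to 0.53. Knockout males were lower than knockout females by -1.42 (SE 0.37, adjusted p = 0.00784), and each male was below each female. In that comparison 54.8% of all genes were separated in either direction. The call of this sex difference was lost with library totals alone (-1.14, adjusted p = 0.0539).

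Exons of *Actr8* and *Chdh* overlap *Il17rb* on the opposite strand, with 10027 and 22845 counts in all. *Chdh* was lower in males by -0.96 (adjusted p = 4.43e-05) in the knockout, and *Actr8* was at 0.02 (adjusted p = 0.877). Whether any of these reads entered the *Il17rb* counts was not tested.

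*Chat* encodes the enzyme that makes acetylcholine, the messenger of cholinergic TCs and of parasympathetic nerves (ENSMUSG00000021919.9, chromosome 14, 32129369 to 32187946, minus strand). It had 1, 0 and 0 counts in wild-type females, 1, 1 and 0 in wild-type males, 0, 0 and 2 in knockout females and 5, 3 and 0 in knockout males. The genotypes overlapped in both sexes. Over both sexes 10 knockout counts stood against 3, a ratio of 3.80 (exact interval 0.978 to 21.5). Other genes of cholinergic neurons were also sparse, with 60 counts in all for the vesicular transporter *Slc18a3*, which lies in an intron of *Chat*, and 147 for the choline transporter *Slc5a7*.

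The test of whether the genotype effect differs between the sexes called 0 of 5 members with edgeR, against 25.7% of all genes. An unadjusted p under 0.05 was found for 7232 of all 17893 genes and for 3 members. These were *Avil* at -2.23 (SE 0.78, adjusted p = 0.0510), *Alox5ap* at 1.63 (SE 0.60, adjusted p = 0.0601) and *Il17rb* at -1.33 (SE 0.52, adjusted p = 0.0745), each as the male minus the female log2 fold change. DESeq2 called *Avil* and *Alox5ap*, among 31.0% of all genes, and limma on the authors' values called *Avil*, among 23.4%. The female effects share their wild-type libraries with the sex difference in wild type, so these results are not independent.

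The genes with patterns most like each testable member were taken by Pearson correlation of log2 CPM over the 12 libraries after subtraction of group means, with no test. *Alox5ap* was most like *Asap1* (0.98), *Nckap1l* (0.98) and *Fcer1g* (0.98), and *Avil* like *Cdc7* (0.97), *Ccl21a* (0.96) and *Gdap2* (0.96). *Plcb2* was most like *Hif3a* (0.97), *Ppp4r4* (0.96) and *Cpz* (0.96). *Dclk1* was most like *Gm16374* (0.93), *Lmbr1* (0.92) and *Habp4* (0.92), and *Il17rb* like *Tmem200b* (0.95), *Gm31024* (0.95) and *Gm56812* (0.95).

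Other TC genes gave a like picture of few counts beside genes that the gland expresses broadly. Of 39 further TC genes, 5 were not counted in any of the 12 libraries: the taste G protein *Gnat3*, the bitter receptor *Tas2r105*, the regulator *Rgs21*, the cytokine *Il25* and the POU2F3 co-activator *Pou2af2*. Another 21 passed the filter. In females 4 of these were higher in knockout, namely the sweet and umami receptor subunit *Tas1r3*, the actin bundler *Espn*, *Runx1* and the co-activator *Pou2af3*, and 3 were lower, among them the phosphatase *Ptpn6* and the surface protein *Cd24a*, where 17.6% of all genes were called higher and 19.3% lower. The median log2 fold change of the 21 was -0.17, against 0.03 for all genes tested. In males 0 of 21 passed with edgeR, 0 with DESeq2 and 0 with limma, and the median was 0.28 against -0.04. With edgeR 3 had an unadjusted p under 0.05, as did 2056 of all 17893 genes.

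*Espn* is named because it was called, after its values were seen. *Tas1r3* had 54, 35 and 24 counts in wild-type and 128, 136 and 165 in knockout females, which did not overlap, as was so for 49.3% of all genes tested. Its log2 fold change was 1.75 (SE 0.29, adjusted p = 8.16e-04). In males it had 150, 83 and 127 counts in wild type and 134, 86 and 123 in knockout, a log2 fold change of 0.14 (SE 0.27, adjusted p = 0.901), and the male minus the female log2 fold change was -1.61 (adjusted p = 0.0136), in a test that called 25.7% of all genes. *Pou2af3* had 6, 7 and 8 counts in wild-type and 16, 33 and 17 in knockout females, a log2 fold change of 1.38 (SE 0.38, adjusted p = 0.0127), and 42 to 74 counts in the 6 male libraries.

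By role, the most counted were *Itpr3* (34384 counts in all), the calcium release channel, *Tas1r3* (1245) and the bitter receptor *Tas2r108* (65) among chemosensory genes, and *Hpgds* (1787), *Ptgs1* (1692) and *Alox5* (482) among genes of lipid messengers. *Cd24a* (182469), the keratin *Krt18* (88678) and *Ptpn6* (6787) led the structural and signalling genes, and *Runx1* (19529), *Pou2af3* (435) and *Spib* (123) the transcription factors.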

How the data were processed

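The authors made the deposited counts with Salmon 1.10.1 against Gencode M35 transcripts on GRCm39, from stranded libraries depleted of ribosomal RNA, as estimated counts per gene. The labels give the molecule as polyA RNA while their protocol and the study's methods describe removal of ribosomal RNA from total RNA, and which applies was not tested. Of the 120 member values, 99 were whole to within 0.0005. A second deposited table holds a normalized signal, the authors' counts divided by factors whose making is not given in the sources used here. Total counts ran from 47032175 to 67882207, the most abundant gene took 11.8% to 39.1% of them, and TMM factors ran from 0.625 to 1.45.

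Counts were rounded and fitted with edgeR 4.0.16 (TMM, filterByExpr, quasi-likelihood test, 1 mean per group, 12 libraries) in R 4.3.3, with p-values adjusted over all 17893 genes (Benjamini-Hochberg, threshold 0.05). Log2 CPM used a prior count of 2. Members below the filter were compared as summed counts with exact conditional intervals (SciPy 1.17.1), and *Pou2f3* by an exact permutation test over libraries. Exon lengths and positions came from Gencode M39 (GRCm39), which holds 55563 of the identifiers.

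Alternatives were RLE factors, library totals, no filter, at least 10 counts in every library, DESeq2 1.42.0, limma 3.58.1 on log2(authors' normalized value + 1), a replicate block, a fit within each sex and each library left out. The ratios with TMM-adjusted sizes were added after seeing the data. Steps were tested on simulated data. All 10 members were to be named, with the 3 genes most like each testable one and, of the other TC genes, the 3 most counted in each role and those at 0. The members and lists were chosen with earlier results of these data known.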

Additional observations from a re-analysis of the deposited data

How the results depend on the processing

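Depth limited 5 of the 10 members to intervals on summed counts, and fold changes of the other 5 to intervals set by 3 mice a group. The count of members called in females was 1, and it became 3 with library totals (*Avil*, *Dclk1* and *Il17rb*), 2 with limma on the authors' values (*Avil* and *Dclk1*) and 0 with at least 10 counts in every library, a filter that *Avil* does not pass. Leaving out 1 library gave 0 to 1, and 0 without knockout female 1. In males the count was 0 under each alternative. Over both sexes it was 0, and 1 with limma (*Dclk1*), and 0 to 1 when 1 library was left out (*Avil* without wild-type female 1). For the interaction it was 0, and 3 with library totals (*Avil*, *Dclk1* and *Il17rb*), 2 with no filter and 2 with DESeq2 (*Avil* and *Alox5ap* in both), 1 with at least 10 counts (*Il17rb*), 1 with limma (*Avil*), and 0 to 2 when 1 library was left out. Between the sexes in wild type it was 1, and 1 to 2 when 1 library was left out (*Avil* added without wild-type female 1, *Alox5ap* without wild-type female 2), and library totals called *Avil* in place of *Dclk1*. In knockout it was 2, and 1 with library totals, where *Il17rb* was lost. Apart from these constructions, the cause was not tested.

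Library totals moved the median log2 fold change of all genes to 0.53 in females, -0.16 in males, 0.20 over both sexes, -0.64 in the interaction, 0.95 between the sexes in wild type and 0.25 in knockout. Relative to this median *Avil* in females was at 2.03. The split of calls in females was 3158 higher and 3453 lower with TMM and 6843 and 360 with library totals. No called fold change changed sign. Those that did were, with library totals, *Plcb2* (-0.041) and *Dclk1* (-0.026) in males, and *Plcb2* (0.47) and *Il17rb* (0.81) between the sexes in wild type. With limma these were *Alox5ap* in females (0.35) and between the sexes in knockout (-0.077), and *Il17rb* over both sexes (-0.0073). When 1 library was left out, sign changes fell within these ranges: *Plcb2* in females -0.070 to 0.63, in males -0.11 to 0.42, in the interaction -0.48 to 0.25 and between the sexes in wild type -0.62 to 0.075; *Alox5ap* in females -0.94 to 0.081; *Avil* in males -0.43 to 0.075; *Il17rb* over both sexes -0.064 to 0.15 and between the sexes in wild type -0.33 to 0.075; *Dclk1* in the interaction -0.15 to 0.056. The exact permutation p of *Pou2f3* was 0.3 to 0.49 under other scalings and 0.16 to 1.0 when 1 library was left out.

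No label says that a replicate number marks paired mice, and same-numbered libraries were not alike (correlation of deviations from group means across genes from -0.13 to 0.09). With a replicate block the count of members called in females stayed at 1, that of all genes was 6349 against 6611, and *Avil* was at 2.11 (adjusted p = 0.0125).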
